A study of Rattus norvegicus with 16 samples.

Results

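Met and Hgf, the genes for a receptor tyrosine kinase and for its ligand, hepatocyte growth factor, were followed in RNA from the mammary glands of young female rats. Both were taken by name, from probe sets to which the platform's annotation gives a single symbol. Where a symbol has several, the one used is selected on its mean level over the 16 arrays, the highest being kept. Met and Hgf had 1 probe set each, so that no choice was needed, and the pair are 2 of 14324 symbols named on the array. Both were bright enough to be among the 11796 genes tested.

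The study asked how exposure before weaning to a plant estrogen and to a fungicide, alone or together, bears on the peripubertal gland. Genistein, an isoflavone of soy, is a ligand of estrogen receptors. Vinclozolin, the fungicide, is metabolised to products that block the androgen receptor. Wistar Han dams on a phytoestrogen-free diet received genistein, vinclozolin or both by daily gavage, from day 1 of gestation until their pups were weaned at postnatal day (PND) 21. The daily dose was 1 mg per kg. The labels do not say whether that dose of the mixture was for each compound or for the sum.

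Glands of female offspring were taken at PND 35 or PND 50, weeks after the last dose, so each group is named by the dams' exposure and the daughters' age. The groups were control, genistein, vinclozolin and mixture, each at both ages, and all daughters had the same diet. Control is labelled as having no treatment, and whether those dams were gavaged with vehicle is not given in the sources used here. Each group had 2 arrays, each hybridised with pooled RNA of 5 animals, and 1 female was taken per litter. The 16 pools are the replicates below. With 2 pools a group their number limits the precision, and the variation between single animals cannot be seen behind the p-values.

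Hepatocyte growth factor is secreted, mostly by mesenchymal and other stromal cells, as an inactive single chain that serine proteases must cut. The cut form binds Met on neighbouring epithelial cells, the receptor phosphorylates itself, and docking proteins such as Gab1 pass the signal to the MAP kinase, phosphoinositide 3-kinase and Stat3 routes. In the mammary gland this stroma-to-epithelium signal is known for promoting the growth and branching of ducts.

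The promoter of Hgf is shown because one exposure binds estrogen receptors and the other bears on the androgen receptor, both of which bind DNA at short hexamers. These are the 250 bases before the RefSeq start of Hgf, chr4:19700468-19700717, minus strand of the assembly GRCr8. The capitals mark TGACCT, the reverse complement of AGGTCA, a half-site of nuclear receptors that include the estrogen receptors.
Hgf: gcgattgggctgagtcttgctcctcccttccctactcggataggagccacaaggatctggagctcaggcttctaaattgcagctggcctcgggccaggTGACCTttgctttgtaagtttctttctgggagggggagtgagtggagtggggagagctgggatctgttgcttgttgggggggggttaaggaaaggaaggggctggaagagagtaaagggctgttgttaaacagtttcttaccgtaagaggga
The match lies 152 to 147 bases before the start, and on either strand 14.1% of 33469 rat promoter windows of the same length hold this hexamer. The letters AGAACA, a half-site of the androgen receptor, were not in the window, and 17.5% of the windows hold them on either strand. The AP-1 letters TGANTCA and the letters CACGTG, one form of the E-box, were not in it either, and 6.3% and 5.6% of windows hold them. Other forms of the E-box were not searched for. These matches describe letters only. The window that the same table gives for Met lies inside the annotated gene, not at its outer start, and is not shown.

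The pools carried the luminal epithelium of a mammary gland: the mean log2 intensities of 12 luminal markers lay between 8.26 for Foxa1 and 11.85 for Gata3. Other tissues also differed between pools. Values of marker lists are given as scores, the mean over the list of each gene's log2 value centred on its mean over the 16 pools. The skeletal muscle score (7 genes) ran from -2.31 in a mixture PND50 pool to 2.35 in a mixture PND35 pool, and the skin and hair follicle score (6 genes) was 3.16 and 2.61 in the vinclozolin PND35 pools and at most -0.27 in every other pool. Correlations between the 2 pools of a group lay between 0.989 and 0.997 over all 27342 probe sets. In RNA from a whole gland, fewer cells of a type and less RNA per cell cannot be told apart.

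Hgf, the ligand, varied little. Its log2 intensities spanned 7.72 to 8.15 over the 16 pools, with a mean of 7.87 that exceeds those of 43.3% of the genes tested. At PND35 the pools read 7.84 and 7.99 in control, 7.72 and 7.88 with genistein, 7.82 and 7.74 with vinclozolin, and 7.92 and 7.73 with the mixture. The genistein and mixture pools overlapped the control, and the upper vinclozolin pool (7.819) lay just under the lower control pool (7.837). At PND50 the pools read 7.96 and 7.86 in control, 7.85 and 7.95 with genistein, 7.85 and 7.74 with vinclozolin, and 8.15 and 7.97 with the mixture. The mixture pools lay above both controls and the vinclozolin pools below both, but the nearest pools of the groups were 0.009 and 0.008 apart. Mixture and control pools of PND50 did not overlap, in either direction, for 41.3% of all genes tested. The shares for vinclozolin against control are not given here.

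In order of group means, Hgf ran from mixture PND50 (8.06) through control PND35 and control PND50 (both 7.91), genistein PND50 (7.90), mixture PND35 (7.83), genistein PND35 and vinclozolin PND50 (both 7.80) to vinclozolin PND35 (7.78). Every neighbouring pair of groups in that order overlapped. Across 21 comparisons of the design, fitted with limma over all genes, Hgf passed an adjusted p of 0.05 in 0. The smallest adjusted p was 0.0823, for PND50 against PND35 after the mixture, where the log2 fold change was 0.23 ± 0.10 (SE, n = 2 pools a group). The unadjusted p was below 0.05 there and, for the mixture against vinclozolin at PND50, at 0.26 ± 0.10 (SE) with an adjusted p of 0.329.

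Met, the receptor, had one group apart from all others. Its log2 intensities at PND35 were 8.83 and 8.91 in control, 9.10 and 9.13 with genistein, 8.87 and 9.02 with vinclozolin, and 8.96 and 8.97 with the mixture. The genistein pools were the highest at that age and did not overlap any other group, an order that was not counted over all genes. At PND50 the values were 9.11 and 9.09 in control, 9.05 and 9.10 with genistein, 9.15 and 9.13 with vinclozolin, and 9.60 and 9.62 with the mixture. The 2 mixture pools stood above every other pool, and the other 3 groups of that age spanned 0.098.

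**Figure D1:**
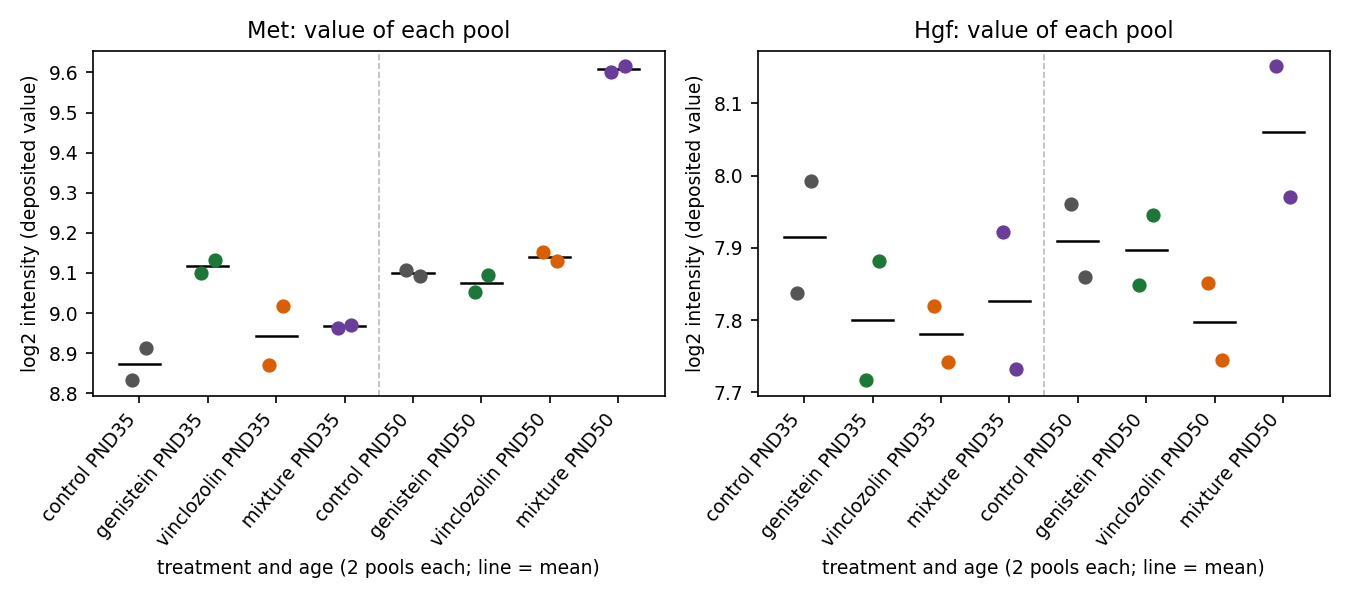
Log2 intensity of Met (left) and Hgf (right) in each of the 16 pools (points, 2 per group, 5 animals each), by treatment and age; black lines are group means and the vertical axes do not start at 0. The Met values of mixture PND50 (9.60 and 9.62) lie above all other pools, while in Hgf each group overlaps the next in the order of means.

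The lower mixture PND50 pool exceeded the highest of the 14 other pools by 0.45 for Met. Those 14 pools spanned 8.83 to 9.15, a range of 0.32, with a median of 9.07. Among the genes tested, 369 (3.13%) had both mixture PND50 pools above the other 14, and the gap of Met was the sixth widest of 11796. For Hgf the lower mixture PND50 pool, at 7.97, lay under the highest other pool, a control PND35 pool at 7.99.

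In order of means, the Met groups after mixture PND50 (9.61) were vinclozolin PND50 (9.14), genistein PND35 (9.12), control PND50 (9.10), genistein PND50 (9.07), mixture PND35 (8.97), vinclozolin PND35 (8.94) and control PND35 (8.87). Neighbours overlapped except at the step from mixture PND50 to vinclozolin PND50 (0.47) and the step from genistein PND50 to mixture PND35 (0.11). The residual SD of Met within groups, 0.0446, was below the median of the genes tested, 0.0958, and that of Hgf was 0.0992.

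At PND50 the mixture group was 1.42-fold above control for Met, a log2 fold change of 0.51 ± 0.06 (SE; 95% interval 0.37 to 0.64), and limma's adjusted p over 11796 genes was 0.046. It was the 1 gene called in that comparison, against 0.00848% of the genes tested, with 874 genes at an unadjusted p under 0.05. Since the pair was chosen with results of these data known, that adjusted p describes this table and is not independent evidence. The call was near the threshold: it was kept when 6 of the 16 pools were left out in turn, while the fold change stayed between 0.50 and 0.52. It was lost with only the groups compared in the fit (0.114) and with adjustment over all probe sets (0.061). Those settings called 5 genes and 2 probe sets, none of them Met. The adjusted p was 0.283 and 0.506 without control PND50 replicate 1 or 2, 0.186 and 0.883 without mixture PND50 replicate 1 or 2, 0.124 without either vinclozolin PND50 pool, 0.0656 without either mixture PND35 pool and 0.0557 without either genistein PND50 pool.

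The same mixture pools were set against each single compound at PND50. Met was 1.45-fold above genistein, 0.53 ± 0.06 (SE, log2) with a limma adjusted p of 0.0281, 1 of 3 genes called (0.0254%). It was 1.38-fold above vinclozolin, 0.47 ± 0.06 (SE, log2) with an adjusted p of 0.0264, 1 of 4 genes called (0.0339%). These comparisons share the mixture pools with the one against control and are not separate evidence. Either call was kept when 6 of the 16 pools were left out in turn, and the highest adjusted p without a pool was 0.579 against genistein and 0.546 against vinclozolin. For Hgf the mixture against control at PND50 gave 0.15 ± 0.10 (SE, log2; interval -0.06 to 0.36, limma adjusted p 0.769).

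The single compounds gave smaller differences for Met. Genistein against control was 0.24 ± 0.06 (SE, log2) at PND35, with an adjusted p of 0.232 in limma and a 95% interval from 0.11 to 0.38. Both genistein pools lay above both controls there, as for 28% of the genes tested, and that comparison called 0 genes in limma, with 1311 at an unadjusted p under 0.05. At PND50 it was -0.02 ± 0.06 (SE, log2; interval -0.16 to 0.11), and those pools overlapped. Vinclozolin against control gave Met values of 0.07 ± 0.06 at PND35 and 0.04 ± 0.06 at PND50 (SE, log2), with limma adjusted p of 0.66 and 0.931, in comparisons that called 1.34% and 0% of genes. The mixture at PND35 gave 0.09 ± 0.06 (SE, log2; adjusted p 0.498), with both pools above both controls, as for 24.8% of genes.

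The mixture effect on Met at PND50 exceeded that at PND35 by 0.41 ± 0.09 (SE, log2), a difference that did not pass the test over all genes (limma adjusted p 0.224, interval 0.22 to 0.61). The same difference was -0.27 ± 0.09 for genistein (adjusted p 0.578) and -0.03 ± 0.09 for vinclozolin (adjusted p 0.978). For Hgf these differences were 0.24 ± 0.14 with the mixture, 0.10 ± 0.14 with genistein and 0.02 ± 0.14 with vinclozolin (SE, log2), with limma adjusted p from 0.501 to 0.99. The averages over both ages against control were 0.30 ± 0.04 for Met after the mixture (adjusted p 0.159) and 0.03 ± 0.07 for Hgf (adjusted p 0.894).

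**Figure D2:**
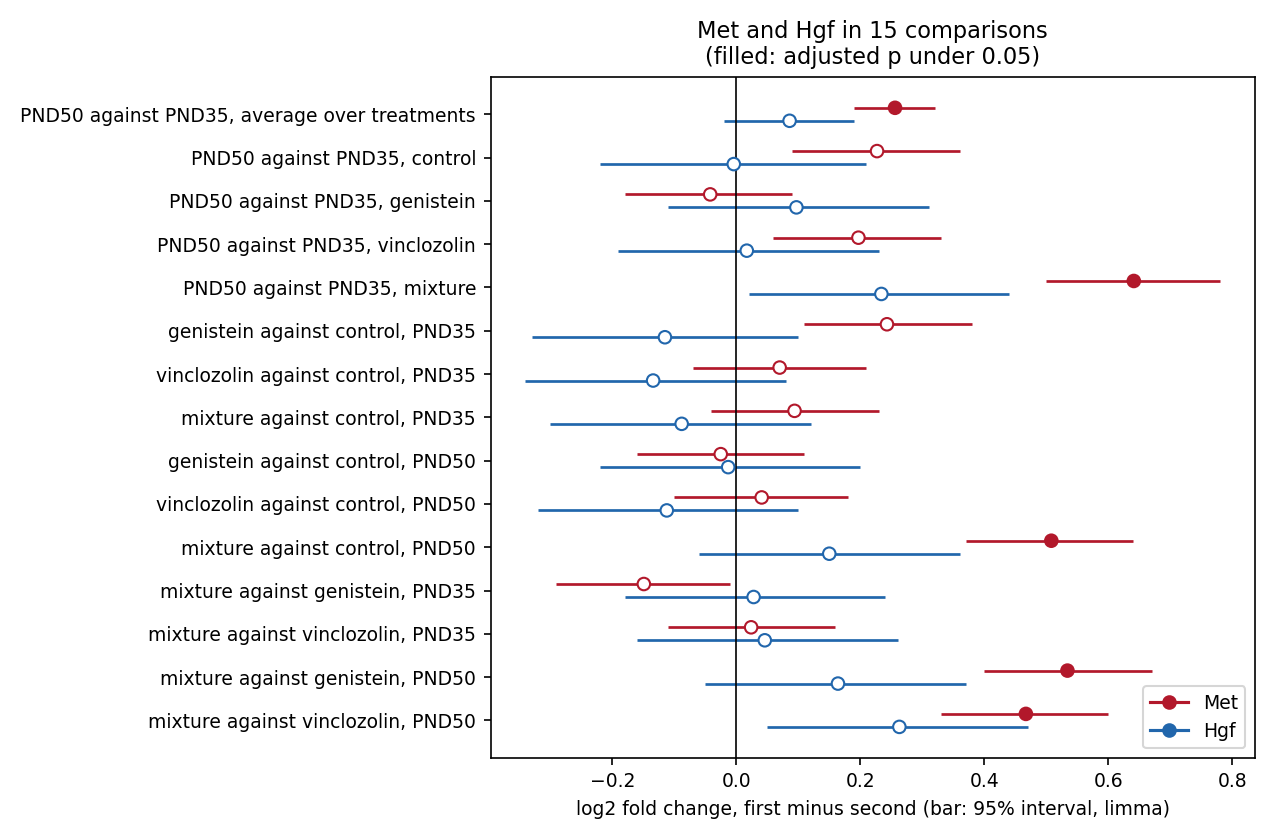
Log2 fold changes of Met (red) and Hgf (blue) in 15 comparisons, first group minus second, with 95% intervals from limma; filled points have an adjusted p under 0.05. Met is filled in 5 comparisons, all of which include the mixture PND50 pools, and Hgf in 0.

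With age, Met rose. Averaged over the 4 treatments, PND50 was 1.19-fold above PND35, a log2 fold change of 0.26 ± 0.03 (SE, 8 pools an age) with a limma adjusted p of 0.000194. This comparison called 44.6% of the genes tested (19.4% higher and 25.2% lower at PND50), so that a call in it is common. An exact permutation of ages within each treatment, two-sided over 1296 splits, gave p = 0.00926 for Met and 0.117 for Hgf, and the smallest p it can give is 0.00154. Hgf differed by 0.09 ± 0.05 (SE, log2), with a limma adjusted p of 0.163. Leaving the mixture pools out of the average, an alternative chosen after seeing the data, brought Met to 0.13 ± 0.04 (SE, log2; limma adjusted p 0.0276). That fit is 1 of 13 alternatives to the main age average of Met. Over these the limma adjusted p ran from 7.03e-05 to 0.16, with the permutation p between.

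Within treatments the age difference of Met was uneven. It was 0.64 ± 0.06 (SE, log2) after the mixture, 1.56-fold with a limma adjusted p of 0.000232, in a comparison that called 32.7% of the genes tested (14.4% higher and 18.3% lower). It was 0.23 ± 0.06 in controls and 0.20 ± 0.06 after vinclozolin (SE, log2), with limma adjusted p of 0.11 and 0.112 in comparisons that called 0.865% and 2.78%. In both, the 2 older pools lay above the 2 younger ones, as for 27.8% and 24.4% of genes. After genistein it was -0.04 ± 0.06 (SE, log2; adjusted p 0.732) in a comparison that called 2.77%. Both older genistein pools, at 9.053 and 9.095, were under the younger pools at 9.100 and 9.133, the nearest of them close together. The share of all genes with that order is not given here. The corresponding values of Hgf were 0.23 ± 0.10, 0.00 ± 0.10, 0.02 ± 0.10 and 0.10 ± 0.10 for mixture, control, vinclozolin and genistein (SE, log2), and none passed the limma test. Set against each other, in comparisons added after the values were seen, the age change of Met after the mixture exceeded that after genistein by 0.68 ± 0.09 and that after vinclozolin by 0.44 ± 0.09 (SE, log2), with limma adjusted p of 0.0384 and 0.0269 where 0.0339% and 3.3% of genes were called. Neither call held when only the groups compared were fitted (adjusted p 0.168 and 0.0804). The comparison with vinclozolin uses the PND35 pools that had skin and hair follicle scores of 3.16 and 2.61.

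Luminal markers also rose with age. Of 12 of them, 8 rose from PND35 to PND50 on average and 0 fell, beside 19.4% of all genes tested called higher and 25.2% lower, with a median log2 fold change of 0.26 beside -0.01 over all genes tested. Of 7 basal and myoepithelial markers tested, 3 rose and 1 fell, with a median of 0.07. The luminal score was -0.26 and -0.34 in control PND35, 0.19 and -0.02 in genistein PND35, -0.14 and 0.09 in vinclozolin PND35 and -0.27 and -0.28 in mixture PND35. At PND50 it was 0.03 and 0.14 in control, 0.02 and -0.06 with genistein, 0.23 and 0.22 with vinclozolin, and 0.20 and 0.24 with the mixture. The luminal scores of the mixture and vinclozolin pools of PND50 spanned 0.04, and the Met means of these groups differed by 0.47. Their skeletal muscle scores also differed, at -0.99 and -2.31 with the mixture and 1.4 and 0.12 with vinclozolin. The part of cell makeup in the Met difference was not tested with this pair of groups. Against control at PND50, 11 of the 12 luminal markers were higher with the mixture, at a median of 0.13, and 0 were called by limma. Of all genes tested, 43.5% were higher there, at a median of -0.02. Since 1 gene in all was called, 0 of 12 says little about the markers.

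Over all 16 pools, Met and the luminal score gave a Pearson r of 0.70 (permutation p = 0.0009, adjusted 0.0216) and a Spearman's rho of 0.82 (permutation p = 0.00017, adjusted 0.00408), and r was 0.69 without the 2 pools farthest from the median score. These pools hold both ages and the mixture PND50 pools that stand apart, and in deviations from the group means r was 0.27 (exact sign-flip p = 0.953). That r rests mainly on the vinclozolin PND35 pools, with luminal scores of -0.14 and 0.09 and Met values of 8.87 and 9.02. They are also the pools with the high skin and hair follicle score. With 1 group outweighing the others, the sign-flip p was bound to be high and decides nothing. Over the 8 pools of one age, Met and the luminal score gave a Pearson r of 0.71 at PND35 (exact permutation p = 0.0536, adjusted 0.21) and 0.57 at PND50 (exact permutation p = 0.125, adjusted 0.3). Spearman's rho was 0.55 and 0.81 (exact permutation p = 0.171 and 0.0218, adjusted 0.499 and 0.262). None of these within-age values passed the adjustment. Without the 2 farthest pools, r was 0.62 and 0.47. Met and Hgf gave r of -0.28 at PND35 and 0.71 at PND50 (exact permutation p = 0.494 and 0.0494, adjusted 0.787 and 0.21), and rho of -0.33 and 0.52. Without the 2 pools farthest in Hgf, r was 0.09 and 0.54. Adjustment was over 24 values, 8 relations each over all pools and within each age, and pools of one group are not independent of its treatment. With the luminal score as a covariate, chosen after seeing the data, the limma fit gave Met 0.49 with an adjusted p of 0.278 for mixture against control at PND50, and 0.22 with 0.16 for the age average. The slope on the score in that fit comes from the same deviations within groups.

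**Figure D3:**
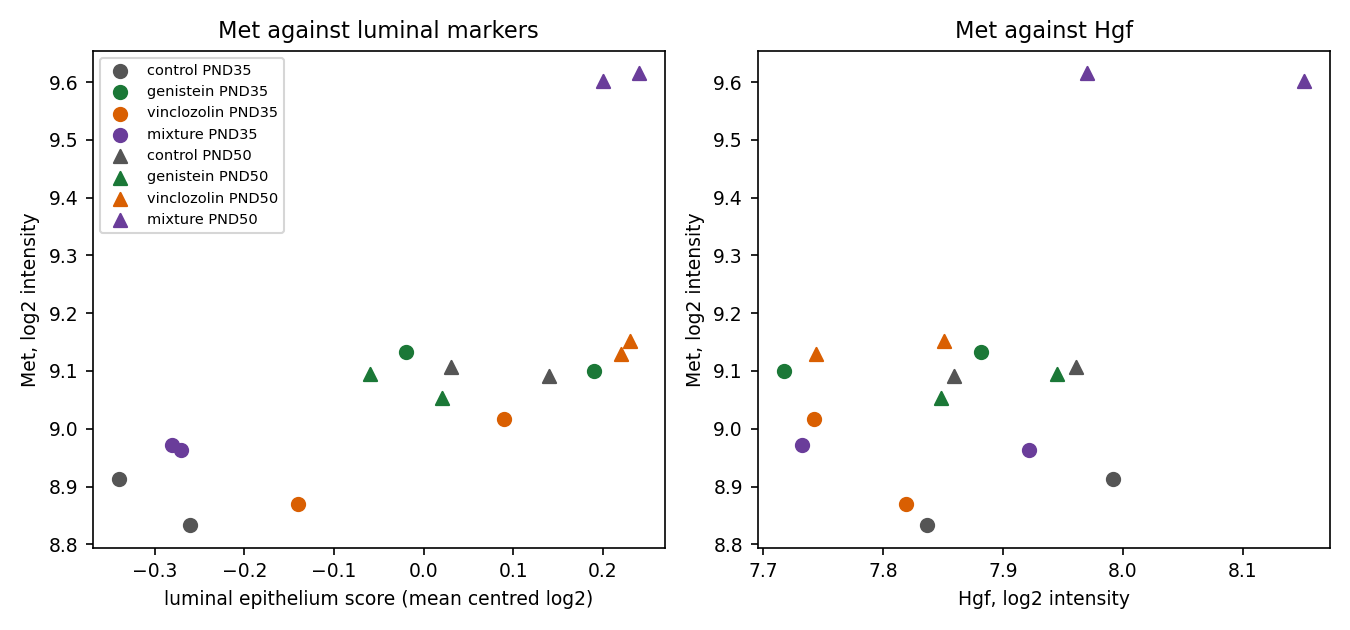
Log2 intensity of Met in each of the 16 pools against the luminal epithelium score (left; mean of 12 centred log2 marker values) and against the log2 intensity of Hgf (right), coloured by treatment, with circles for PND35 and triangles for PND50. The 2 mixture PND50 pools have the highest Met values in both panels.

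Skeletal muscle markers moved the other way. All 7 fell from PND35 to PND50 on average, where 25.2% of all genes tested were called lower, with a median log2 fold change of -1.46. All 7 also fell after the mixture, where 18.3% were called lower, with a median of -3.09. At PND50 the muscle score was -1.07 and -1.20 in control, -1.38 and -0.60 with genistein, 1.40 and 0.12 with vinclozolin, and -0.99 and -2.31 with the mixture. With this score as a covariate, also chosen after seeing the data, Met was 0.52 above control in the mixture PND50 pools (limma adjusted p 0.0815). It was 0.29 higher with age (limma adjusted p 0.0807), in a fit that called 18 genes for the age average. The share of unlike tissue in these pools was not measured, and its part in either result was not tested beyond these fits.

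The other genes of the pathway were read from lists by role. Of 72 genes besides the pair, 63 were named on the array and 60 tested. From PND35 to PND50, averaged over treatments, 16 rose and 11 fell by limma's adjusted p, with a median of 0.01 on the log2 scale, beside 44.6% called among all genes tested. In the mixture alone 12 rose and 8 fell, beside 32.7% of all genes called, and in controls alone 0 did either, beside 0.865%, so that the counts followed the share of all genes called. In each of the 6 exposure comparisons with control and in both comparisons of the mixture with a single compound at PND50, 0 of the 60 were called. Those comparisons called between 0% and 1.34% of all genes tested, so 0 of 60 says little about the lists. With the mixture at PND50 the median of the 60 was 0.01 against control.

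The paralogous pair is Mst1, the ligand known as macrophage-stimulating protein, and Mst1r, its receptor Ron. Mst1r rose with age by 0.20 ± 0.06 (SE, log2; limma adjusted p 0.021), from 6.45 to 6.98 in the PND35 pools to 6.66 to 7.03 in the PND50 pools, which overlap. Mst1 differed by -0.04 (adjusted p 0.671). With the mixture at PND50 they were 0.02 and 0.13 above control (adjusted p 0.985 and 0.901).

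Among the proteases that cut the inactive ligand, 7 of 9 were tested, and 2 rose and 1 fell with age. That comparison called 19.4% of all genes tested higher and 25.2% lower. Hgfac, the activator found in serum, rose by 0.16 ± 0.04 (SE, log2; adjusted p 0.00417), and F12, coagulation factor XII, by 0.14 ± 0.05 (adjusted p 0.0411). Both were dim, at 6.33 to 6.68 for Hgfac and 6.22 to 6.59 for F12 over the pools. Plat, tissue plasminogen activator, fell by 0.29 ± 0.05 (adjusted p 0.0013). St14, the epithelial membrane protease matriptase, differed by 0.06 (adjusted p 0.474), and Plau, urokinase, by -0.04 (adjusted p 0.681). With the mixture at PND50, Hgfac was -0.01, St14 0.12 and Plau -0.12 against control (log2), none called.

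The Kunitz inhibitors of these proteases rose with age. Spint1 rose by 0.41 ± 0.08 (SE, log2; limma adjusted p 0.00181) and Spint2 by 0.24 ± 0.05 (adjusted p 0.00455), both of the 2 inhibitors tested. Among all genes tested, 19.4% were called higher with age. Spint1 ran from 8.78 to 9.60 in the younger pools and from 9.40 to 9.75 in the older ones, so that the ages overlap. At PND50, the mixture pools read 9.56 and 9.70 for Spint1 and the control pools 9.50 and 9.75, a difference of 0.00 ± 0.16 (SE, log2; adjusted p 0.999). Spint2 differed by -0.01 ± 0.11 (adjusted p 0.995). In that comparison both differences were smaller than their SE, and any link of the inhibitors to Met was not tested.

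At the membrane, 5 of 6 partners were tested, in an age comparison that called 44.6% of all genes tested. Itgb4, the integrin chain of epithelial hemidesmosomes, rose by 0.36 ± 0.05 (SE, log2; adjusted p 0.000414), and Nrp1, neuropilin 1, fell by 0.22 ± 0.05 (adjusted p 0.00445). Of the shedding and antagonist genes, 3 of 4 were tested. Adam17, a protease that releases the outer parts of membrane proteins, fell by 0.25 ± 0.03 (adjusted p 0.000281), and Dcn, the matrix proteoglycan decorin, rose by 0.11 (log2).

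Inside the cell, 17 of 20 adaptors and effectors were tested, and 3 rose and 6 fell with age. Those that rose were Pik3r1, a regulatory subunit of phosphoinositide 3-kinase (0.33, log2), the transcription factor Stat3 (0.28) and the docking protein Gab1 (0.13, adjusted p 0.0424). Map2k1 (-0.23), Ptpn11 (-0.21) and Grb2 (-0.17) had the largest falls. Of 11 negative regulators tested, Ptpn1, Ptprj and Spry1 rose, and Spry4 fell by 0.49 ± 0.07 (SE, log2; adjusted p 0.000559). Of 13 tested genes known to respond to the ligand in epithelial cells, Egr1 (0.34), Junb (0.27) and Fosl1 (0.14) rose and Ets1 (-0.13) fell. Fosl1 read 5.69 to 6.08 over the pools, near the filter value of 5.661, and has no detection call.

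In the mixture against control at PND50, Gab1 was 0.13 ± 0.09 (SE, log2; adjusted p 0.809). The values furthest from 0 in the lists, picked out after they were seen, were Dusp6 at 0.40 ± 0.13, Junb at 0.36 ± 0.14 and Stat3 at 0.32 ± 0.09 (SE, log2), with limma adjusted p of 0.539, 0.634 and 0.509. Stat3 read 11.36 and 11.39 in the mixture pools and 11.13 and 10.99 in control, without overlap, as for 41.3% of all genes in either direction.

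**Figure D4:**
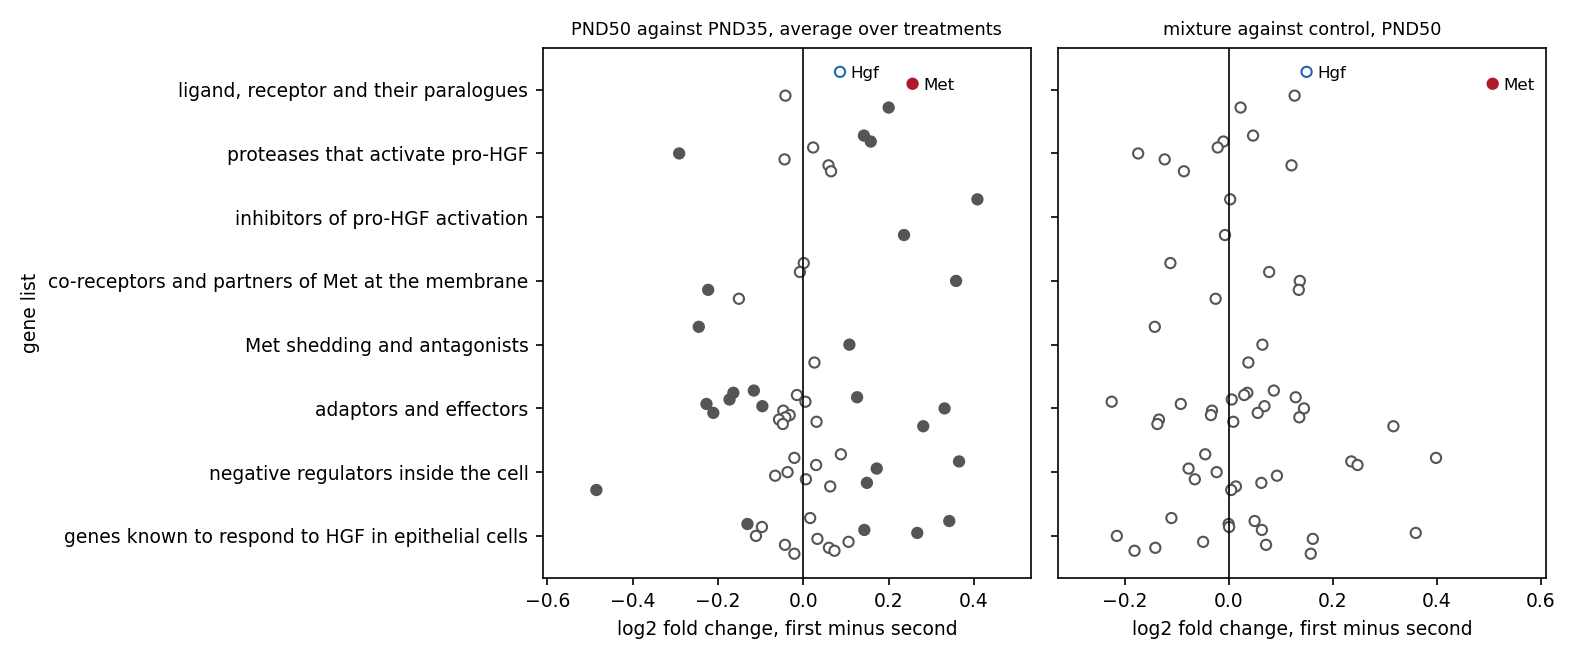
Log2 fold changes of Met, Hgf and the 60 other tested pathway genes by list, for PND50 against PND35 averaged over treatments (left) and for the mixture against control at PND50 (right); filled points have a limma adjusted p under 0.05. In the right panel Met, at 0.51, is the only filled point.

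The genes whose pattern over the 16 pools was most like that of Met were Cytip (Pearson r 0.92), Cd14 (0.90), Tprn (0.89), Slc5a8 (0.88) and Gk (0.87). Without the 2 mixture PND50 pools, over 14 pools, their r was 0.83, 0.60, 0.68, 0.67 and 0.59. Cytip, a cytohesin-binding protein, read 8.79 and 9.06 in the mixture PND50 pools and 7.42 to 8.29 elsewhere, and Slc5a8, a monocarboxylate transporter, read 9.89 and 9.99 there and 7.25 to 8.92 elsewhere. For Hgf they were Lims2 (0.82), Dapk1 (0.80), Tnfsf13b (0.78), Car3 (0.77) and Igf1 (0.76). Without the mixture PND50 pools these were 0.74, 0.72, 0.60, 0.76 and 0.69. These pools share treatments and ages, and likeness was not tested. Hgf ranked 1004 of 11795 genes by likeness to Met, and Met ranked 247 by likeness to Hgf.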

How the data were processed

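Affymetrix arrays measured RNA of 16 pools, grouped by the sample titles. The table deposited by the authors gives 27342 probe sets, read as log2 intensity from its values (2.2 to 13.95, array medians 7.05 to 7.145). The sources used here do not give its log base, background correction or normalization, no detection calls were used, and the values were taken as deposited. The platform annotation gives 15097 probe sets 1 symbol, 323 several, and 11922 are unnamed here. The gene identifiers of 15067 matched a RefSeq table of GRCr8, used for names.

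For each of the 14324 symbols the probe set with the highest mean was kept (499 had several), and genes with a mean below 5.661, the 25th percentile over probe sets, were left out. Then limma 3.58.1 in R 4.3.3 fitted 8 group means (8 residual degrees of freedom), with 21 comparisons and 3 differences between age changes added later. Tests were two-sided, adjusted by Benjamini and Hochberg over all 11796 genes, with a threshold of 0.05. The fit was tested on simulated data. Figures used matplotlib 3.10.9.

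The members, gene lists and comparisons were chosen with earlier results of these data known. The named genes are Met and Hgf, up to 6 genes per list past the test by size of fold change, 8 fixed genes (Mst1, Mst1r, Spint1, Spint2, St14, Hgfac, Plau, Gab1), and for each member the 5 genes with the highest Pearson r. Alternatives were other filters, quantile normalization, median centring, probe sets averaged per gene or all kept, array weights, a replicate block, the compared groups only, an intensity trend, each pool left out, an exact permutation, residual correlations, and covariates added after the data were seen.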

Additional observations from a re-analysis of the deposited data

Results flagged for a closer look

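The age change of Met differed between treatments by a test of the difference itself, in comparisons added after the values were seen. After the mixture it exceeded that after genistein by 0.683 ± 0.088 (SE, log2; limma adjusted p 0.0384), 1 of 4 genes called (0.0339% of those tested). It exceeded that after vinclozolin by 0.443 ± 0.088 (SE, log2; limma adjusted p 0.0269), where 389 genes (3.3%) were called. The vinclozolin PND35 pools in this comparison had skin and hair follicle scores of 3.16 and 2.61, with at most -0.27 in every other pool. Their correlation with each other, 0.989, was the lowest of any group. The part of unlike tissue in this difference was not tested. The older mixture pools (9.601 and 9.615) lay above the younger ones (8.963 and 8.971). The older genistein pools (9.053 and 9.095) lay under the younger ones (9.1 and 9.133), with the nearest pools close together. The shares of all genes with such orders are not given here. Leaving out 1 pool at a time gave 0.662 to 0.704 and 0.37 to 0.517, and the call was kept in 6 and 9 of 16 fits. The first was also short of the threshold with median centring (limma adjusted p 0.0625), over all probe sets (0.0747), with only the groups compared (0.168) and with the luminal (1.0) or muscle (0.175) score as a covariate added after seeing the data. The second was short of it with only the groups compared (0.0804) and with the luminal (0.148) or muscle (0.837) score. For Hgf the same differences were 0.136 and 0.216, with limma adjusted p of 0.708 and 0.407.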

How the results depend on the processing

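With 2 pools a group and whole-gland RNA, calls near the threshold rest on single pools and on the other groups' spread, and dim probe sets have no detection call. For Met, quantile normalization turned the age difference after genistein to 0.014, and for Hgf that in controls to 0.002. Median centring left mixture against vinclozolin at PND50 at 0.472 and short of the threshold, with the age change after the mixture minus that after genistein (0.637), and adjustment over all probe sets did so for mixture against vinclozolin (0.467) and control (0.508) at PND50 and for that age difference (0.683). Fitting only the groups compared ended the calls against control (0.508) and genistein (0.534) at PND50 and of the age change after the mixture minus that after genistein (0.683) or vinclozolin (0.443). Array weights brought the age difference of Met in controls (0.227) past the threshold.

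Under covariates added after seeing the data, few genes of any kind kept a call for the age average or for age after the mixture. The age average called 3 genes with the luminal and 18 with the muscle score, against 5261 in the main fit. Age after the mixture called 0 with either score, against 3852. Fold changes of Met lost their calls under these covariates except the mixture against vinclozolin at PND50 with the luminal score (0.468, limma adjusted p 0.0337). With the luminal score they were 0.221 for the age average, 0.573 for age after the mixture, 0.489 for mixture against control and 0.501 against genistein at PND50. With the muscle score they were 0.291, 0.718, 0.52 and 0.549, and 0.523 against vinclozolin. The age change after the mixture minus that after genistein or vinclozolin was 0.6 and 0.41 with the luminal score and 0.716 and 0.537 with the muscle score, no longer called. Differences not called changed sign. With the luminal score these were, for Hgf, age in controls (0.27), genistein (0.163) and vinclozolin (0.061) at PND35, their averages over ages (0.038 and 0.026), the mixture against genistein (-0.233) and vinclozolin (-0.132) at PND35, the differences of effect between ages of genistein (-0.249) and vinclozolin (-0.071), and the age change after vinclozolin minus that after genistein (0.178). With the muscle score they were, for Hgf, age in controls (0.07) and after vinclozolin (-0.019), mixture against genistein (-0.012) and vinclozolin (-0.037) at PND35 and the vinclozolin effect between ages (-0.089), and for Met, age after genistein (0.002), vinclozolin at PND50 (-0.003) and mixture against vinclozolin at PND35 (-0.014). The cause was not tested.

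Leaving out 1 pool at a time gave Met 0.237 to 0.274 for the age average and 0.634 to 0.648 for age after the mixture, with the call kept in all 16 fits of each. It gave 0.5 to 0.516, 0.512 to 0.555 and 0.457 to 0.478 for the mixture against control, genistein and vinclozolin at PND50. Differences not called changed sign in at least 1 fit: for Met, vinclozolin at PND35 (-0.003 to 0.144), mixture against vinclozolin at PND35 (-0.05 to 0.098) and the vinclozolin effect between ages (-0.103 to 0.044). For Hgf they were age in controls (-0.082 to 0.073) and after vinclozolin (-0.036 to 0.07), mixture at PND35 (-0.183 to 0.007), genistein at PND50 (-0.064 to 0.038), mixture averaged over ages (-0.016 to 0.079), mixture against genistein (-0.068 to 0.123) and vinclozolin (-0.049 to 0.141) at PND35, the vinclozolin effect between ages (-0.056 to 0.099) and the age change after vinclozolin minus that after genistein (-0.163 to 0.002).

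The replicate block changed the call or direction of 0 of 48 fold changes (Met, mixture against control at PND50, 0.508 with a limma adjusted p of 0.0387). Whether the replicate numbers pair the pools cannot be told with 2 pools a group. Deviations of same-numbered pools correlated at -0.366 to 0.301 over 28 pairs of groups, 8 of them over 0.1. Genes called for the mixture against control at PND50 numbered 0 under either covariate, and 2 under quantile normalization, median centring or the intensity trend. They numbered 3 with the stricter filter, 4 with the block, 5 with only the groups compared, 6 with no filter and 7 with array weights. Over all probe sets, 2 were called. In deviations from the group means, the Pearson r of Met was -0.231 with the basal score and 0.329 with the muscle score, and that of Hgf 0.322 with the muscle score, against 0.134, -0.522 and -0.465 over the 16 pools.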
